A study of Mus musculus with 6 samples.

Results

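The genes described here lie in 1 stretch of mouse chromosome 16: the fetuin genes Ahsg and Fetub, the histidine-rich glycoprotein gene Hrg, the kininogen genes Kng1 and Kng2, and the lipase gene Liph with its neighbour Tmem41a. They were chosen by name and position, and all array features that the platform annotation assigns to any of them were taken, which gave 7 features for 7 genes among 23521 features with 1 gene symbol (41345 features in all). The choice was made with the differences between AA2G and untreated cells already known, so the values of that comparison are given for these genes as a description and are not tested. The values come from the male embryonic stem cell line R1, which stems from the inner cell mass of a 129X1 x 129S1 mouse cross and was grown on gelatin with fetal bovine serum and the self-renewal cytokine LIF. Cells kept for 3 days with 0.74 mM AA2G (250 µg/ml), an ascorbic acid glucoside that cells convert to vitamin C, were compared with cells kept for 3 days in the same medium without it, with 3 arrays in each group. Every sample stems from this 1 cell line, and R1 was the only line used.

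Fetuins, histidine-rich glycoprotein and kininogens are secreted plasma proteins built around cystatin domains, folds that in classical cystatins block cysteine proteases, and in the adult they are made mainly by the liver. Fetuin-A, the product of Ahsg, binds calcium phosphate and keeps it from precipitating in serum, whereas fetuin-B, the product of Fetub, inhibits the egg protease ovastacin and so keeps the zona pellucida penetrable before fertilisation. Kininogens are the precursors from which kallikreins release bradykinin, and histidine-rich glycoprotein binds heparin, plasminogen and metal ions. Liph encodes a phospholipase that makes lysophosphatidic acid and is known for its role in hair growth, and Tmem41a encodes a multi-pass membrane protein related to the lipid scramblase TMEM41B. In the RefSeq gene order of the chromosome, Tmem41a and Liph are direct neighbours, Ahsg, Fetub, Hrg, Kng2 and Kng1 follow one another in that order, and 8 other protein-coding genes stand between Liph and Ahsg.

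Some genes of the stretch were called higher and others were not. Fetub, Liph, Ahsg and Tmem41a were higher in cells kept with AA2G, by 3.17-fold, 2.65-fold, 1.74-fold and 1.34-fold, whereas Hrg, Kng2 and Kng1 had overlapping groups and differences of 0.03, 0.17 and -0.02 on the log2 scale. A feature was called changed where limma's moderated test over all 23521 features gave a Benjamini-Hochberg adjusted p under 0.05. By that criterion 4 of the 7 genes were called higher and 0 lower, where 0.608% of all features were called higher and 0.153% lower. All AA2G arrays lay above all untreated arrays for the same 4 genes, as they did for 7.21% of all features, and for 0 of the 7 they all lay below, as for 8.48%. Because the genes were chosen from this comparison, these shares are printed for orientation only. The RNA comes from whole cultures, so more cells with a transcript and more transcript per cell cannot be told apart. The median difference of the 7 genes was 0.43 and that of all features was -0.01.

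**Figure D1:**
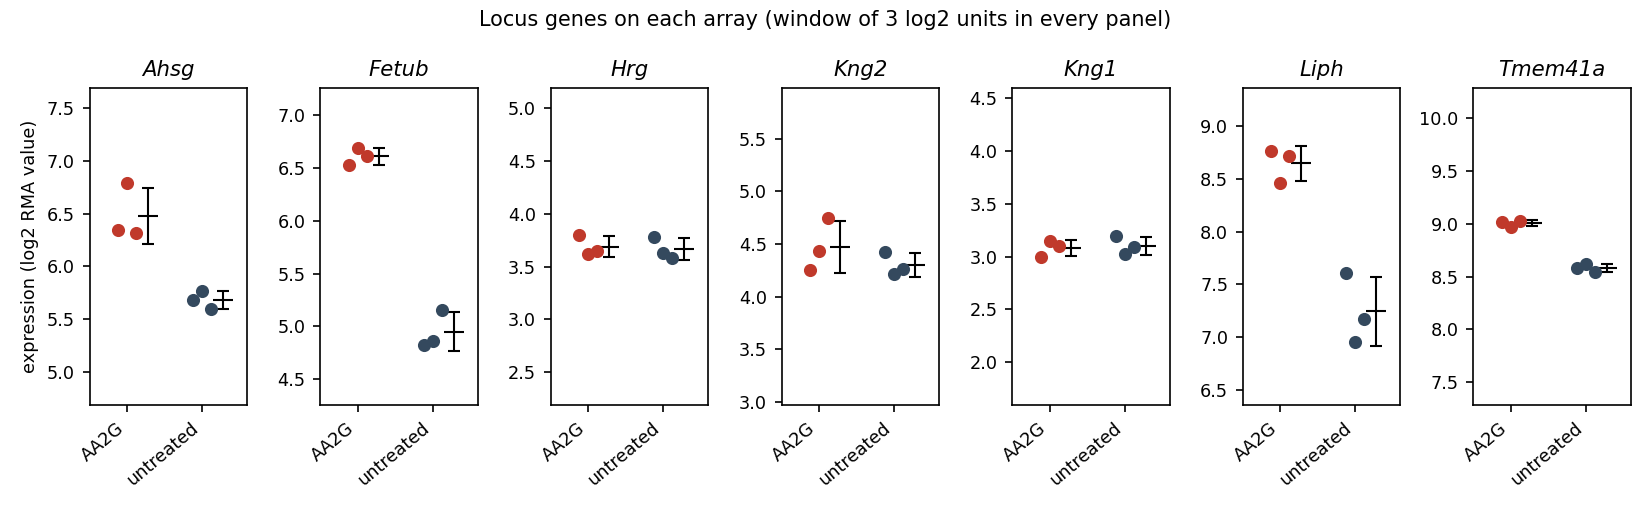
Expression of the 7 genes on each array, as log2 RMA values on the vertical axis, with AA2G arrays in red and untreated arrays in dark blue; black marks give the mean ± SD of 3 arrays. Every panel spans 3 log2 units. The AA2G arrays stand clear of the untreated arrays for Ahsg, Fetub, Liph and Tmem41a, and the groups overlap for Hrg, Kng2 and Kng1.

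Fetub (Entrez Gene 59083) had the largest difference of the 7. Its log2 values were 6.53, 6.70 and 6.61 on the AA2G arrays, against 4.82, 4.86 and 5.16 on the untreated arrays. The lowest AA2G array therefore stood 1.37 log2 units above the highest untreated array. The group means were 6.61 ± 0.08 with AA2G and 4.95 ± 0.18 without (SD, n = 3 each), a fitted difference of 1.67 ± 0.10 (SE). By size this was number 18 among the 143 features called higher. The deposited values carry no detection calls, so the untreated level of Fetub cannot be told from background, and summarised values of dim features understate fold changes.

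Ahsg (11625), the direct neighbour of Fetub and its closest relative in the group, moved less. It measured 6.34, 6.79 and 6.31 on the AA2G arrays, against 5.68, 5.77 and 5.59 on the untreated arrays. AA2G replicate 2 was the highest of these, and the groups were 0.55 apart at their nearest arrays. The means were 6.48 ± 0.27 and 5.68 ± 0.09 (SD, n = 3 each), and the difference was 0.80 ± 0.13 (SE). Its call depended on single arrays: it was kept without AA2G replicate 2 (difference 0.65) and lost without any other single array, with differences of 0.80, 0.85 and 0.76 without untreated replicates 1, 2 and 3 and of 0.87 and 0.88 without AA2G replicates 1 and 3. The call was also lost when all 41345 features were fitted.

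Ahsg and Fetub are both transcribed from the plus strand, Ahsg first. The bases before their annotated starts are shown because these neighbours were called higher together while Hrg, the next gene, was not. The sequences are those of the C57BL/6J reference (RefSeq, build GRCm38.p6), not of the strains of the R1 line, and each gives the 250 bases before a start, 5′ to 3′ on the gene's strand, with CpG dinucleotides in capitals. Fetub has 2 annotated starts, and the windows are chr16:22891765-22892014 for Ahsg, chr16:22918132-22918381 and chr16:22919972-22920221 for Fetub and chr16:22950822-22951071 for Hrg, all on the plus strand.
Ahsg: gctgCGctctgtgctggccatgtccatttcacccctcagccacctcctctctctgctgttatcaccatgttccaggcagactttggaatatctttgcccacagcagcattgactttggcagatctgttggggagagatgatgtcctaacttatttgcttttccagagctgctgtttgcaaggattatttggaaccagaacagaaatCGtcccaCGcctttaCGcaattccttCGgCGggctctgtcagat
Fetub start 1: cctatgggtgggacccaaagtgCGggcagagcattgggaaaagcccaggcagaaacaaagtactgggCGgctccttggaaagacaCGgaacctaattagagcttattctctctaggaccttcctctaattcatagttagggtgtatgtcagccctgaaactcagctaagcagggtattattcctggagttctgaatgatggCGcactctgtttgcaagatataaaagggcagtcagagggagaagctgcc
Fetub start 2: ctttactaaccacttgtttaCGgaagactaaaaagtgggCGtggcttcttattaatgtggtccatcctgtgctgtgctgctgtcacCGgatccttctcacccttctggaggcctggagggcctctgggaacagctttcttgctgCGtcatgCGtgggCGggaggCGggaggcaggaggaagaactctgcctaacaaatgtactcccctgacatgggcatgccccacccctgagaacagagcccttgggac
Hrg: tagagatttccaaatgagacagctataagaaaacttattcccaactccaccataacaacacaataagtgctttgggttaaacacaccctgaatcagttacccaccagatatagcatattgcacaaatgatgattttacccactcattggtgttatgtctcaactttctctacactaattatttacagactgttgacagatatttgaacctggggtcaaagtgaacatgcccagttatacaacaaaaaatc

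These windows held 6 CpG dinucleotides at Ahsg, 4 and 7 at the starts of Fetub and 0 at Hrg. The median of the 32851 promoter windows in the table was 6, with quartiles at 2 and 16. Motifs were searched on both strands by exact letters. Fetub start 1 held 1 TATA box (TATAAA, found in 12.4% of all windows), and start 2 held 2 copies of the E2F core TCCCGC (found in 16.9%), of which 1 overlaps the GC box of that window. Each Fetub window also held 1 GC box (GGGCGG, in 32.7%). A CCAAT box (CCAAT, in 33.8%) was found at Fetub start 1 and at Hrg. None of the 7 windows available for 6 of the genes held the E-box CACGTG, which 6.02% of all windows held. These are matches of letters in a window and were not tested as binding sites.

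Liph (239759) measured 8.77, 8.46 and 8.72 on the AA2G arrays, against 7.60, 6.95 and 7.17 on the untreated arrays. The untreated arrays were the more spread, and the groups were 0.86 apart at their nearest arrays. The means were 8.65 ± 0.16 with AA2G and 7.24 ± 0.33 without (SD, n = 3 each), and the difference was 1.41 ± 0.16 (SE). It was number 29 by size among the features called higher. The call was lost without untreated replicate 3, where the difference was 1.37, and was kept without each of the other 5 arrays, with differences from 1.26 to 1.59.

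Tmem41a (66664) had the smallest difference of the 4 called genes and the closest replicates. Its values were 9.02, 8.97 and 9.03 on the AA2G arrays, against 8.58, 8.62 and 8.54 on the untreated arrays. The groups were 0.35 apart at their nearest arrays, while the SD within a group was 0.03 with AA2G and 0.04 without (n = 3 each). The means were 9.01 and 8.58, and the difference was 0.43 ± 0.07 (SE), number 142 by size among the 143 features called higher. Tmem41a was not called when any 1 of the 6 arrays was left out, although its difference stayed between 0.41 and 0.45 in those fits, nor when all features were fitted or the replicate number was a block (0.43 in each).

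Liph and Tmem41a are transcribed from the minus strand, Liph first and Tmem41a next after it. Their windows are shown for comparison with those of the fetuin genes, at chr16:21995543-21995792 for Liph and chr16:21947553-21947802 for Tmem41a (RefSeq, GRCm38.p6, minus strand, CpG in capitals).
Liph: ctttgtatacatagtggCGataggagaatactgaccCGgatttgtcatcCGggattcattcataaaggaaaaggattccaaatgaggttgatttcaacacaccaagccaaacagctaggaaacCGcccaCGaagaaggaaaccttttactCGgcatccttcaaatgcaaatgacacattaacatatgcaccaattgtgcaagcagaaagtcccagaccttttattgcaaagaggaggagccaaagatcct
Tmem41a: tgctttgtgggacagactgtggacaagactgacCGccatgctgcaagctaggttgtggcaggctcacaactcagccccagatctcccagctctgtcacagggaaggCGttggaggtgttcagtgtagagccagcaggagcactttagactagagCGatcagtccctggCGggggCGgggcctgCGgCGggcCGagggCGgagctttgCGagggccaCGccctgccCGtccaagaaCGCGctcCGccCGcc

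The Liph window held 6 CpG dinucleotides with a G+C content of 42.8%, and that of Tmem41a held 16 with 64.8%, against a median G+C content of 52.4% over all windows. Observed CpG over that expected from the C and G content was 0.53 at Liph and 0.61 at Tmem41a, against 0.39 at Ahsg, 0.27 and 0.36 at Fetub, 0.16 at Kng2 and a median of 0.37 over all windows. Liph held 1 GC box and 1 CCAAT box, and Tmem41a held 3 GC boxes. The called genes thus did not share 1 class of promoter by CpG content: the window of Tmem41a had more CpG than 74.6% of all windows, those of Ahsg and Liph more than 49.7% and those of Fetub more than 37.8% and 53.7%. Kng2, which was not called, held 2.

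**Figure D2:**
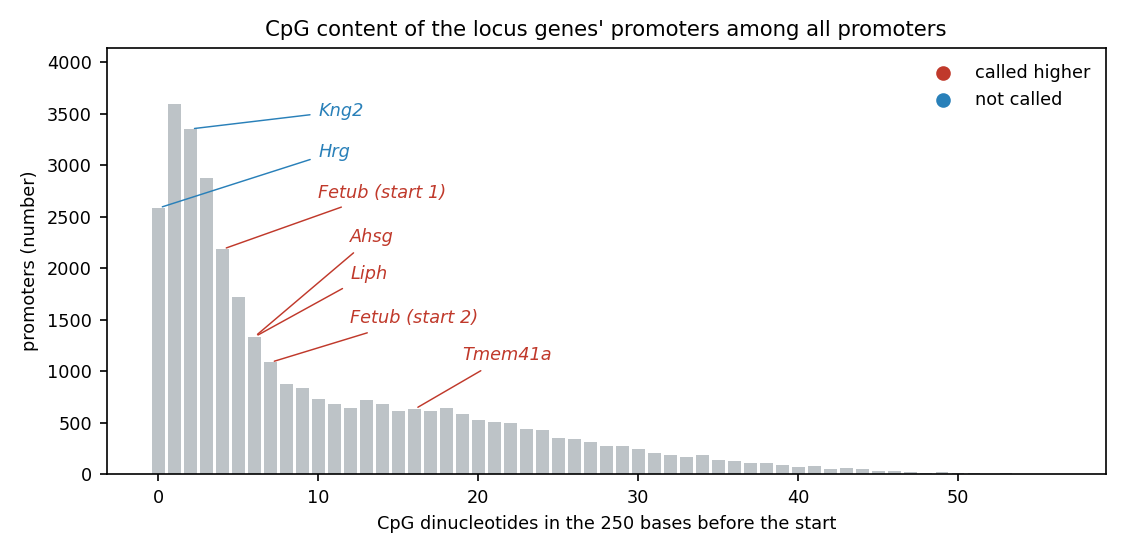
Number of promoter windows (vertical axis) by their count of CpG dinucleotides in the 250 bases before the start (horizontal axis), for all 32851 windows in grey, with the windows of 6 locus genes marked, red for genes called higher and blue for genes not called. Hrg has 0 and Kng2 has 2, the windows of Fetub, Ahsg and Liph have 4 to 7, and that of Tmem41a has 16.

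Hrg and the kininogen genes stayed at low values in both groups. Hrg (94175) measured 3.80, 3.62 and 3.64 on the AA2G arrays, against 3.78, 3.63 and 3.58 on the untreated arrays, a difference of 0.03 ± 0.09 (SE). Kng1 (16644) measured 3.00, 3.15 and 3.10 on the AA2G arrays, against 3.20, 3.03 and 3.09 on the untreated arrays, a difference of -0.02 ± 0.08. The groups overlapped for both genes, and the sign of each difference turned when single arrays were left out, within -0.03 to 0.09 for Hrg and -0.06 to 0.02 for Kng1.

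Kng2 (385643) measured 4.25, 4.43 and 4.74 on the AA2G arrays, against 4.43, 4.21 and 4.27 on the untreated arrays. AA2G replicate 3 was the highest of the 6 arrays, and without it the difference of 0.17 ± 0.13 (SE) was 0.04. Kng1 and Kng2 are close copies of one another, so probes of one may take up RNA of the other. The mean over the 6 arrays lay below the percentile 40 of all tested features (4.99) for Hrg, Kng1 and Kng2 and above it for the 4 genes called higher. Fetub lay above it through its AA2G arrays, since its untreated mean was 4.95. At the values of Hrg, Kng1 and Kng2 the array does not separate low expression from none. A small change of these 3 genes was therefore not detectable here.

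The question whether the chromosome stretch moved with them was addressed with the genes around these 7. The 8 protein-coding genes between Liph and Ahsg and the 10 on each outer side make 28 genes, of which 22 had a feature with 1 symbol, 28 features in all. None was called: limma gave 0 higher and 0 lower, the lowest adjusted p was 0.198, and 3 features passed at an unadjusted p under 0.05, as 9.71% of all features did. Their median difference was 0.01. Between Liph and Ahsg, 6 genes were measured on 7 features, with differences from -0.10 to 0.15, and 0 of these had an unadjusted p under 0.05.

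The nearest neighbours inward and beyond the kininogens did not pass the threshold. Senp2, a SUMO protease gene next to Liph, averaged 8.94 ± 0.07 with AA2G and 8.84 ± 0.09 without (SD, n = 3 each; difference 0.11 ± 0.08, SE; limma adjusted p = 0.746). Dnajb11, a chaperone gene of the endoplasmic reticulum next to Ahsg, measured 7.90, 8.16 and 8.02 on the AA2G arrays, against 7.91, 8.02 and 7.82 on the untreated arrays (difference 0.11 ± 0.09, SE; limma adjusted p = 0.785). Eif4a2, a translation initiation helicase gene that follows Kng1, was at 0.01, -0.01 and 0.01 on its 3 features (limma adjusted p from 0.984 to 0.989). The arrays of the groups overlapped for each of these genes.

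On the other side of Tmem41a, the 2 nearest genes had positive differences that did not pass the threshold. Map3k13, a stress kinase gene and the direct neighbour of Tmem41a, was at 0.35 ± 0.12 and 0.23 ± 0.08 (SE) on its 2 features, with limma adjusted p of 0.372 and 0.370. The groups overlapped on the first feature and not on the second. The second was dim, with means of 3.17 with AA2G and 2.94 without. Ehhadh, a peroxisomal fatty acid oxidation gene and the next one along, measured 5.41, 5.59 and 5.70 on the AA2G arrays, against 5.16, 5.30 and 5.14 on the untreated arrays, with a difference of 0.36 ± 0.10 (SE; limma adjusted p = 0.198). Its groups did not overlap, and it was called in 1 alternative, with array weights (difference 0.45, adjusted p = 0.0408); over all fits its adjusted p ran up to 0.511. These 3 features were those with an unadjusted p under 0.05.

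**Figure D3:**
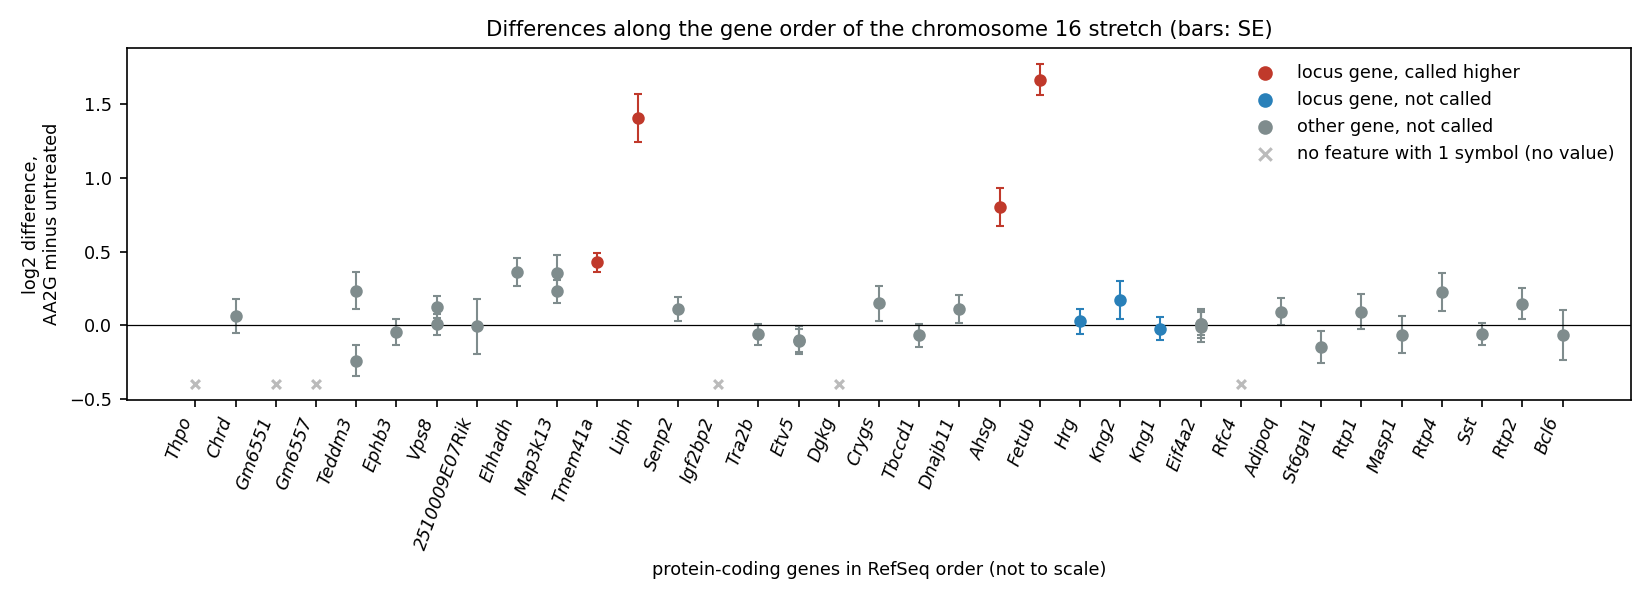
Log2 difference (AA2G minus untreated, vertical axis; bars are SE) of each feature along the RefSeq order of protein-coding genes (horizontal axis, not to scale), with called locus genes in red, the other locus genes in blue and surrounding genes in grey. Tmem41a with Liph and Ahsg with Fetub form separate pairs of called neighbours, and the measured genes between the pairs lie within -0.10 to 0.15. On the other side of Tmem41a (0.43), Map3k13 (0.35 and 0.23) and Ehhadh (0.36) also lie above 0 but were not called. Crosses mark genes without a value.

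Over all of chromosome 16, 626 features of protein-coding genes were tested, of which 6 were called higher (0.958%) and 2 lower. Over all features the shares were 0.608% higher and 0.153% lower. Ahsg, Fetub, Liph and Tmem41a were 4 of the 6. They were chosen with this comparison known, so that count is a description only.

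The genes whose products act with these proteins were set beside them. These lists, and those of markers and transcription factors below, were chosen with earlier results of these data known. Their counts and p-values are therefore a description. Of 15 measured genes of the kallikrein-kinin system, the enzymes and receptors that release, read and destroy kinins, 1 rose, 0 fell and 14 did not pass. An unadjusted p under 0.05 was reached by 4 higher and 0 lower genes of this list. Over all features, 9.71% had such a p in either direction, 0.608% were called higher and 0.153% lower. The same shares apply beside the counts of the lists below. The gene that rose was Cpn1, the catalytic subunit of carboxypeptidase N, a plasma enzyme that trims kinins. It measured between 8.98 and 9.03 on the 3 AA2G arrays, against 7.62, 7.81 and 7.82 on the untreated arrays, without overlap. The difference was 1.25 ± 0.08 (SE; 2.38-fold; limma adjusted p = 0.000354), and it passed in all 14 alternatives, with adjusted p from 4.37e-05 to 0.00806.

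Other kinin genes did not pass. The complement and kallikrein inhibitor gene Serping1 was at 0.30 ± 0.07 (SE; limma adjusted p = 0.169), the tissue kallikrein gene Klk1 at 0.68 ± 0.23 (0.362) and Ace, which encodes the kinin-degrading angiotensin-converting enzyme, at 0.31 ± 0.11 (0.384). The list median was 0.03. Its mean level per array lay between 5.76 and 5.81 with AA2G and between 5.59 and 5.64 without, in log2 units, and this mean includes Cpn1.

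Other cystatins were measured by 19 genes, of which limma called 0. Before adjustment, 1 was higher and 0 were lower at p under 0.05. That gene was Cstb, the intracellular cystatin B, which measured 8.14 ± 0.11 with AA2G and 7.73 ± 0.26 without (SD, n = 3 each), a difference of 0.41 ± 0.13 (SE; limma adjusted p = 0.311). Next in order of p came Stfa1, at 0.28 ± 0.18, and Cstdc6, at -0.13 ± 0.11, and the list median was 0.03. Only 3 of the 19 genes had a mean above the percentile 40 of all features, so small changes of the dimmer ones may not be detectable. Among 6 genes of astacin proteases and the zona pellucida, limma called 0 and 0 had an unadjusted p under 0.05. Those with the smallest p were Zp3 at 0.13, Mep1b, a meprin subunit gene, at 0.11 and Zp2 at 0.07, and the list median was 0.05. Of these 6 genes, 2 had a mean above that percentile, so the same limit holds.

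Around Liph, 9 genes of lysophosphatidic acid synthesis, breakdown and reception were measured. Limma called 0 of them, and before adjustment 1 was higher and 1 was lower at p under 0.05. Pla1a, a phospholipase gene of the same family as Liph, was at 0.42 ± 0.11 (SE; limma adjusted p = 0.190), the receptor gene Lpar2 at -0.23 ± 0.07 (0.294) and the receptor gene Lpar1 at 0.28 ± 0.12 (0.518), with a list median of 0.01. The relatives of Tmem41a gave 0 calls among 3 genes and 0 at an unadjusted p under 0.05, with Tmem41b at -0.04, Tmem64 at -0.02, Vmp1 at 0.03 and a list median of -0.02.

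Ahsg, Fetub, Hrg and the kininogens are classical liver products, so markers of hepatocytes and of the endoderm that stem cells can form were measured too. Of 23 hepatocyte genes, limma called 0, and the median was 0.02. Before adjustment, 1 of them was higher and 0 were lower at p under 0.05. That 1 gene was the clotting factor gene F9, at 0.35 ± 0.09 (SE; limma adjusted p = 0.167), while Cps1, a urea cycle gene, was at 0.16 ± 0.07 and Itih2, an inter-alpha-trypsin inhibitor gene, at -0.20 ± 0.13. Albumin (Alb, named after its value was seen) was at 3.88 ± 0.08 with AA2G and 3.79 ± 0.07 without (SD, n = 3 each). The list's mean level per array ran from 4.37 to 4.39 with AA2G and from 4.32 to 4.40 without, and 6 of the 23 genes had a mean above the percentile 40 of all features.

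Of 17 primitive and visceral endoderm genes, limma called 0, and before adjustment 2 were higher and 2 lower at p under 0.05, with a median of 0.01. The mean level per array ran from 5.44 to 5.48 with AA2G and from 5.41 to 5.53 without. The genes with the smallest p were Lama1, a laminin chain gene, with a difference of 0.50 ± 0.09 (SE) and an adjusted p of 0.0706 in limma, and Sparc, a matrix protein gene, at 0.34 ± 0.07 (0.0925), and Cubn, an endocytic receptor gene, was at -0.26 ± 0.10. Of 9 measured transcription factor genes of liver and endoderm, limma called 0 and 0 had an unadjusted p under 0.05, with Hnf4a at 0.18 ± 0.08, the bile acid receptor gene Nr1h4 at 0.17 ± 0.07, Cebpa at 0.17 ± 0.11 and a median of 0.12.

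All 10 pluripotency genes, markers of the labelled cell type, lay above the percentile 40 of all features (4.99). Dppa5a did so only narrowly, at 5.08 with AA2G and 5.15 without. The mean level of the list per array ran from 9.39 to 9.41 with AA2G and from 9.40 to 9.42 without. Of these 10 genes, 1 rose, the Oct4 target Fbxo15, by 0.63 ± 0.07 (SE; limma adjusted p = 0.00625), and 0 fell. An unadjusted p under 0.05 was reached by 1 higher and 3 lower genes. The 3 lower were Klf4 at -0.31 ± 0.07, Nanog at -0.17 ± 0.07 and Pou5f1 (Oct4, named after its value was seen) at -0.16 ± 0.07. The list median was -0.04.

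**Figure D4:**
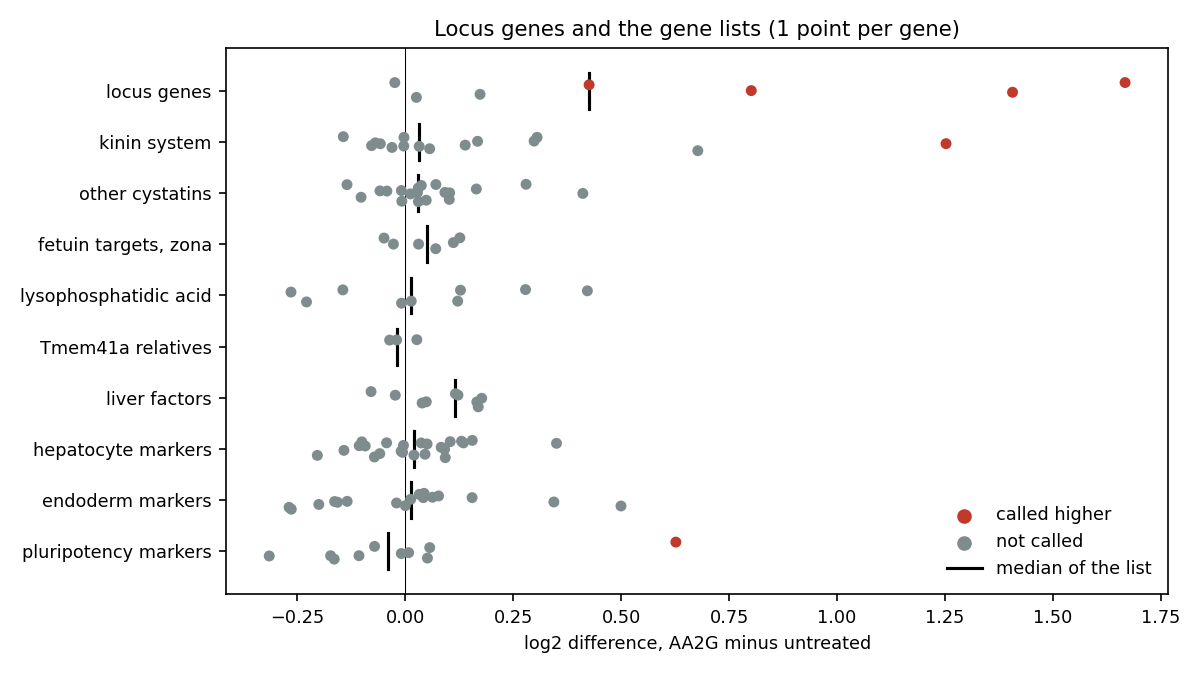
Log2 difference (AA2G minus untreated, horizontal axis) of each gene, 1 point per gene, in rows for the 7 locus genes and the 9 gene lists; red points were called higher, grey points were not called, and the black bar is the median of the row. Outside the locus genes, the red points are Cpn1 in the kinin system and Fbxo15 among the pluripotency markers.

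The genes whose profile over the 6 arrays was most like that of a called locus gene were found by the root-mean-square distance between log2 profiles, each set to its own mean. Nearest to Fetub were Ccdc73 (distance 0.12), the testis ribosomal protein gene Rpl10l (0.13), the piRNA helicase gene Mov10l1 (0.16), the germ cell gene Morc1 (0.18) and the homeobox gene Rhox5 (0.20), all 5 called higher, with differences from 1.47 for Ccdc73 to 1.93 for Morc1. For Liph they were Taf9b (0.10), the meiotic cohesin gene Smc1b (0.15), the piRNA pathway gene Mael (0.19), Trim52 (0.20) and the ephrin receptor gene Epha4 (0.20), likewise all called higher, with differences from 1.14 to 1.58. Morc1 lies on chromosome 16 as well, outside the 35 genes of the stretch examined.

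Ahsg was nearest to Shisal2b (0.08), Ptprtos (0.08), Kcnu1 (0.09), Platr14 (0.10) and Arntl2 (0.11), of which Shisal2b and Arntl2 were not called. Tmem41a was nearest to Camk1d (0.03), Nat2 (0.05), Septin1 (0.05), Trim66 (0.05) and Hsf2bp (0.05), of which Trim66 and Hsf2bp were not called. Likeness here rests on 6 arrays in 2 groups and mostly reflects the size of the difference between them. That holds among the called locus genes too, so their distances do not tell whether direct neighbours move together. The distance was 0.47 between Ahsg and Fetub and 0.54 between Liph and Tmem41a. Across the separate pairs it ran from 0.25 (Ahsg with Tmem41a) to 0.64 (Fetub with Tmem41a), with 0.31 between Fetub and Liph.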

How the data were processed

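The deposited values are log2 expression values that the authors made with RMA in Affymetrix Expression Console from Mouse Gene 2.0 ST arrays, 1 per sample, per the submitters' processing notes; for versions, genome build and filters, the sources used here give nothing. RMA equalises the arrays (medians 5.06 to 5.10), so a change in total RNA per cell is not seen. Precision is limited by the number of arrays, and p-values reflect only how these 3 samples a group vary. The labels name no batch.

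Features with 1 symbol in the platform annotation were tested. All 7 locus genes matched RefSeq (GRCm38.p6) by gene ID, which gave the gene order and promoter windows; feature coordinates are not printed, since the array's build is unknown. One model was fitted in R 4.3.3 with limma 3.58.1 (lmFit, eBayes, no covariate, two-sided, AA2G minus untreated), with Benjamini-Hochberg adjustment, and was tested on simulated data. With 3 arrays a group, the smallest p of an exact permutation test is 0.1.

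The locus genes and the 9 gene lists were chosen with earlier results of these data known. In lists, the brightest feature stands for a gene. Named are the 7 genes, called and nearest neighbours, called list genes and those with the 3 smallest p, and 5 nearest profiles per called locus gene (no predicted genes, Rik clones, small RNAs or olfactory or vomeronasal receptors). Alternatives were repeated quantile normalization, a common median for all arrays, array weights, a prior that is trended and robust, a block for the replicate number, brighter features only, 1 feature per gene, all features and each array left out. The labels do not say whether the replicate numbers pair the samples. Residuals of same-numbered arrays correlated at 0.23, 0.22 and 0.02 across features, which does not decide it.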

Additional observations from a re-analysis of the deposited data

How the results depend on the processing

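Fetub was called in all 14 alternatives, Liph in 13, Ahsg in 8 and Tmem41a in 6, and no difference of these 4 genes changed sign. The number of called locus genes was 2 when all features were fitted and ran from 1 to 3 when 1 array was left out; fewer arrays, and more features to adjust over, are part of those alternatives. It was 3 with the replicate number as a block. That fit is given as a hint only, since the labels do not say whether the numbers pair the samples. Its calls over all features were 155. Calls over all features numbered 277 when the prior was trended and robust, 496 with array weights (303 higher and 193 lower, 61.1% higher, against 79.9% in the model reported) and from 64 to 131 without 1 array. Rises made up 90.6% of calls without untreated replicate 3 and 65.7% (165 against 86) when dim features were dropped. Neighbour features called numbered 1 with array weights (Ehhadh) and 0 in the other alternatives. The median difference of the 7 genes was that of Tmem41a in every fit that held all of them. It stayed within the mean replicate SD of the 7 genes, which is wider than the SD of Tmem41a. Brighter features only left out Hrg, Kng1 and Kng2, so no median was formed there. That fit kept Fetub through its AA2G arrays, since its untreated mean was below the cut. The causes of these shifts were not tested.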

Other observations

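Neighbouring genes that were called together were counted over the genome, a count added after the values were seen. Among measured protein-coding genes in RefSeq order, 10 pairs of direct neighbours were both called higher with AA2G, on 4 chromosomes. Chromosome 16 held 2 of them, Tmem41a with Liph and Ahsg with Fetub. The X chromosome held 5, among them the ferritin genes Fthl17b (1.05) and Fthl17e (1.09) and the predicted genes Gm15080 (1.42), Gm15114 (2.00) and Gm15127 (1.35), which make 2 pairs. On chromosome 4 the zinc finger genes Zfp981 (1.93), Rex2 (1.00) and Zfp982 (1.08) made 2, and the Y chromosome held 1, Uba1y (0.64) with Kdm5d (0.66). The other pairs on the X chromosome were Ct55 (0.94) with 1700013H16Rik (0.92) and AV320801 (1.06) with Nxf7 (0.51). The ferritin and zinc finger neighbours are related genes, as are Ahsg and Fetub. Liph with Tmem41a, and likewise Uba1y with Kdm5d, belong to unrelated gene families. For the remaining pairs on the X chromosome, relatedness was not examined. The total of neighbouring measured pairs was not taken, so the 10 pairs have no share beside them. Related neighbours can share probe signal, which was not tested.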
